A study of Mus musculus with 22 samples.

Results

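RING1B peaks of adult intestinal crypts were compared with those of embryonic stem cells (ESC), the cultured pluripotent cells of the early embryo. The crypt list came from the AhCre wild-type (WT) RING1B ChIP and held 2368 peaks on chromosomes 1 to 19, X and Y. The ESC list came from the WT ESC RING1B ChIP and held 5974. These 8342 peaks were part of 190797 in the 16 peak lists of a series of 22 samples, whose other 6 samples were inputs. A peak was called shared when at least 1 bp overlapped a peak of the other list, and crypt-only or ESC-only when no base did. Every group had 1 library, so no value below has a replicate error and no test between cell types was possible. Intervals are exact Clopper-Pearson 95% intervals for shares and exact order-statistic intervals for medians, and they cover counting error only. Peaks of 1 library are not independent samples of a cell type.

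Crypts are the pockets at the base of the intestinal lining in which stem cells renew the epithelium. Per the labels, the crypts were from C57BL/6 mice, WT in genotype. In AhCre mice an inducible promoter that responds to β-naphthoflavone drives the recombinase, and in Villin-Cre mice a promoter of the intestinal epithelium drives a recombinase activated by tamoxifen. The design text gives male mice of 8 to 12 weeks, 7 days after induction, but it was written for RNA libraries, and whether the ChIP crypts shared this scheme, or carried floxed Pcgf6 alleles or a Cre, was not given in the sources used here. The ESC were of the E14 line, WT, with C57BL/6 in the strain field as for the crypts. Chromatin was fixed with formaldehyde in all of them. A second RING1B list, from Villin WT crypts (4403 peaks), served as another crypt library. PCGF6 lists of AhCre WT crypts and of ESC and lists of H2AK119ub1 from both kinds of WT crypts were read as further measurements. The labels of the H2AK119ub1 samples name an S2 spike. RING1B lists of crypts labelled PCGF6 knockout (KO) in place of WT, from AhCre and from Villin mice, were read too. So were lists of the chromatin proteins CTCF and RAD21 from Villin WT crypts. Each peak carries the authors' score, −log10 of a p or q value, of at least 10. Scores were ranked within a list and not compared in size between lists. The number of reads behind each list is unknown, so for a peak missing from a list, the depth of the library and the cell type cannot be told apart.

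Polycomb repressive complex 1 (PRC1) is a chromatin regulator that helps keep developmental genes silent in cells that do not use them. RING1B is its ubiquitin ligase subunit and places the mark H2AK119ub1 on histone H2A. Different PCGF proteins assemble RING1B into different complexes. The PCGF6 complex contains the DNA-binding partners MGA, MAX and E2F6 and is known in ESC for repressing germline genes.

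The RefSeq promoter sequences below (GRCm38.p6, 250 bases before to 50 after the start, 5′ to 3′ on the gene's strand) show 1 gene of each kind, with every CG dinucleotide in capitals. Isl2, a homeobox factor of motor neurons, had RING1B in both cell types (chr9:55540899-55541198, plus strand). Sox2, a pluripotency factor, had it within 1 kb of a gene end in crypts and not in ESC (chr3:34649745-34650044, plus strand). Cdx2, a master regulator of intestinal identity, had it in ESC and not in AhCre WT crypts (chr5:147307200-147307499, minus strand). Vil1, which encodes the brush border protein villin, had it in neither (chr1:74409134-74409433, plus strand).
Isl2: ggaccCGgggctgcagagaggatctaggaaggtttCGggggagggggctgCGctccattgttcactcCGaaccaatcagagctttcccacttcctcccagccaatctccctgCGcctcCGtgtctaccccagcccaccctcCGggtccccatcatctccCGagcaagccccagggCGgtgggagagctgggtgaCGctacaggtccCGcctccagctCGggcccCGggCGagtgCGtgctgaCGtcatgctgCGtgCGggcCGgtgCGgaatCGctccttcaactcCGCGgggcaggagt
Sox2: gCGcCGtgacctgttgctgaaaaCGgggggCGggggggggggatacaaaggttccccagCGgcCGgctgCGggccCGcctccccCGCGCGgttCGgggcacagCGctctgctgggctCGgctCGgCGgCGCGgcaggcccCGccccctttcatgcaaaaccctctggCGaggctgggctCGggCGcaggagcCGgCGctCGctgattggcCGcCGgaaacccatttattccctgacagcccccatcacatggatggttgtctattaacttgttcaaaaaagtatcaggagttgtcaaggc
Cdx2: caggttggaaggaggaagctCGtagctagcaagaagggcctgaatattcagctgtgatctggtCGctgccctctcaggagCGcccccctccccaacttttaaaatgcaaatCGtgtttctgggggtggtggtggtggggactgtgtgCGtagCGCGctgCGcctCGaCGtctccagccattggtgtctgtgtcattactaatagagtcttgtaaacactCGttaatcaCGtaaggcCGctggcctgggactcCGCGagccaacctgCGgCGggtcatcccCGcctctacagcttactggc
Vil1: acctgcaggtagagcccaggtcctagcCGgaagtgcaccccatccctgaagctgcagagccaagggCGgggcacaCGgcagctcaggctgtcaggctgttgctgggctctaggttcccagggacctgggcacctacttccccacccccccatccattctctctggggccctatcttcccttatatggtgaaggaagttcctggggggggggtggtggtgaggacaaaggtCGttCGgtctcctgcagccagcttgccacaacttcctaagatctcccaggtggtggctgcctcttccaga

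The first 3 hold 23, 27 and 18 CG dinucleotides, against 5 in the Vil1 promoter. Their ratio of observed to expected CG was 0.678 for Isl2, 0.819 for Sox2, 0.731 for Cdx2 and 0.175 for Vil1. At Isl2, RING1B scored 1437 in AhCre WT crypts, 766 in Villin WT crypts and 621 in ESC. It was the strongest peak of the AhCre WT list. At Sox2, AhCre WT crypts scored 50.03 and Villin WT crypts 65.7, and the ESC list had no peak there. At Cdx2, AhCre WT crypts had no peak, Villin WT crypts had a weak peak of score 10.3, and ESC had a peak of score 477.

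Of the crypt peaks, 1524 (64.4%, interval 62.4 to 66.3%) overlapped an ESC peak and 844 did not. Of the ESC peaks, 1492 (24.97%, interval 23.9 to 26.1%) overlapped a crypt peak and 4482 did not. The crypt peaks covered 4.99 Mb and the ESC peaks 11.9 Mb, with 3.18 Mb covered by both. That is 63.7% of the crypt bases and 26.8% of the ESC bases. The unequal lengths of the lists enter both shares. With the ESC list reduced to its 2368 strongest peaks, 42.7% of the crypt peaks were shared, and 39.1% of those ESC peaks overlapped a crypt peak. As a yardstick, 84.4% of the AhCre WT crypt peaks overlapped a Villin WT crypt peak, and 68.3% did when that list was reduced to the same 2368 peaks.

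Presence in the second crypt library went with sharing. Of the 1998 AhCre WT peaks that Villin WT crypts also had, 69.4% were shared with ESC. Of the 370 that Villin WT crypts lacked, 37.0% were (interval 32.1 to 42.2%). The difference between the libraries also bears on the ESC-only class: 37.0% of all ESC peaks overlapped a Villin WT crypt peak, and 39.0% overlapped a peak of either crypt list.

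Sharing followed the score rank in both lists. Among crypt peaks, 48.1% of the weakest decile and 89.4% of the strongest overlapped an ESC peak. Among ESC peaks, 9.87% of the weakest decile and 61.0% of the strongest overlapped a crypt peak. The ESC share was 15.1 to 15.2% from the third to the fifth decile. In the tenth, 233 of 597 ESC peaks had no crypt counterpart, against 25 of 236 crypt peaks without an ESC counterpart. The median score was 18.1 for shared and 13.6 for crypt-only peaks, and 67.1 for shared and 25.1 for ESC-only peaks.

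**Figure D1:**
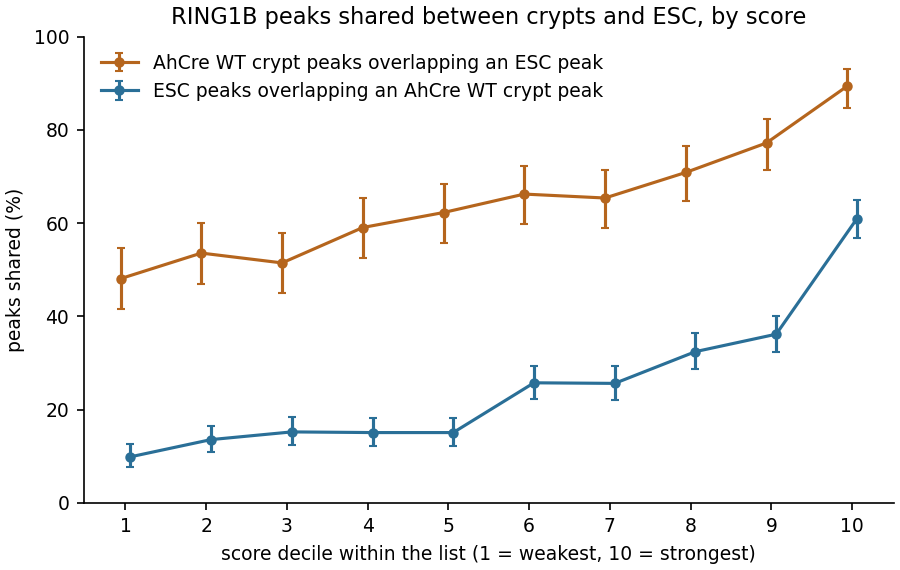
Share of RING1B peaks that overlap a peak of the other cell type, by score decile within each list (1 = weakest, 10 = strongest); bars are exact 95% intervals of counting error. The crypt line runs between 48.1% and 89.4%, above the ESC line, which runs between 9.87% and 61.0%.

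Shared peaks had the larger median width in both lists. The median width was 1480.5 bp for shared and 869 bp for crypt-only peaks in crypts (intervals 1403 to 1550 and 825 to 910 bp). In ESC it was 2208 bp for shared and 1207.5 bp for ESC-only peaks (intervals 2128 to 2307 and 1174 to 1242 bp). Within score quartiles of the crypt list, from weakest to strongest, medians were 849, 1065, 1486.5 and 3681.5 bp for shared peaks and 663, 848, 1007 and 2017 bp for crypt-only peaks, with intervals apart in each. In the ESC list they were 785, 1171, 1797 and 3873.5 bp for shared peaks and 650, 1025, 1665 and 2830 bp for ESC-only peaks. There the intervals were apart in the weakest and strongest quartiles and overlapped in the middle quartiles. Peaks of 2 kb or more made up 35.2% of shared crypt peaks (536) and 11.7% of crypt-only peaks (99), and 54.8% of shared ESC peaks (818) and 24.3% of ESC-only peaks (1090). Domains of 10 kb or more numbered 59 among shared crypt peaks and 1 among crypt-only peaks, and 78 among shared ESC peaks and 15 among ESC-only peaks. A wider peak has more bases that can meet another peak, and the part of this in the sharing was not tested.

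**Figure D2:**
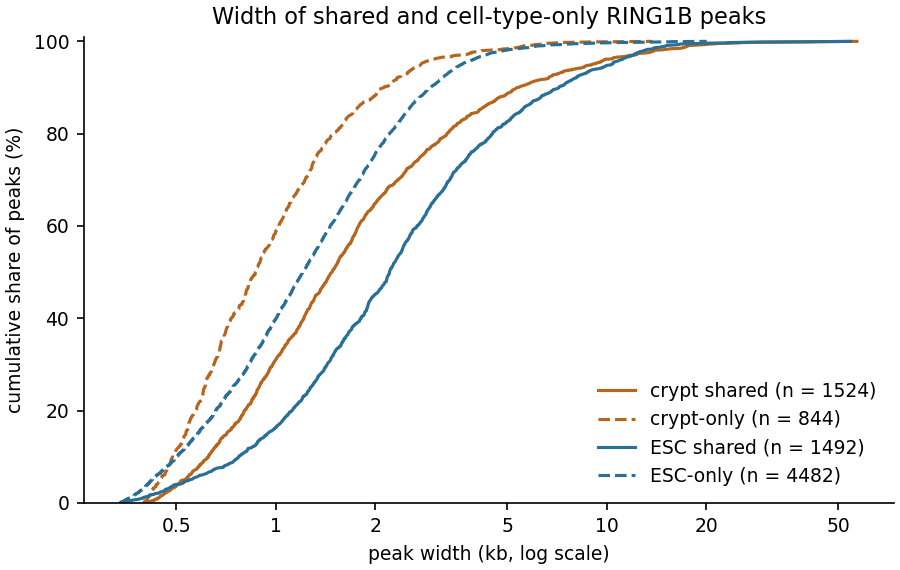
Cumulative share of RING1B peaks by width (kb, log scale) for shared and crypt-only peaks of the crypt list and shared and ESC-only peaks of the ESC list. The curves of the shared peaks lie to the right of those of the cell-type-only peaks of the same list, with medians of 1480.5 against 869 bp in crypts and 2208 against 1207.5 bp in ESC.

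Joined where they overlapped, the shared peaks formed 1386 loci, 1219 of them with a single peak on each side. The crypt peaks covered more bases in 472 loci and the ESC peaks in 914. The median log2 ratio of crypt to ESC bases was -0.38 (interval -0.44 to -0.31). Some of the widest domains went the other way. The widest crypt peak spanned 56.9 kb over Evx2 and Hoxd13 to Hoxd8 (chr2:74648306-74705240), where it met 5 ESC peaks with a summed width of 49.95 kb. The next spanned 43.7 kb over Hoxa3 to Hoxa11 (chr6:52198291-52242006). It met 2 ESC peaks with a summed width of 44.7 kb, so here the ESC peaks covered slightly more. The third spanned 39.8 kb at Pax3, a neural crest and muscle progenitor factor, where it met 6 ESC peaks with a summed width of 20.04 kb. A crypt domain of 29.8 kb lay at Hoxb13, and the fifth, of 25.7 kb, lay at Cdkn2a and Cdkn2b, the Polycomb-repressed cell cycle inhibitor genes. This domain of 25.7 kb met 1 ESC peak of 1.95 kb. A separate crypt peak just beside it met further ESC peaks, so the 1.95 kb is not the ESC coverage of the whole locus. Among ESC peaks, the widest spanned 54.5 kb over Hoxb9 to Hoxb3 (chr11:96276631-96331145), where it met 9 separate crypt peaks with a summed width of 33.7 kb. The other widest ESC peaks lay over the Hoxa and Hoxd clusters, at the Polycomb gene Cbx8 (26.2 kb) and at Pax2 (23.3 kb).

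All 4 Hox clusters, whose genes set position along the body axis, carried RING1B in both cell types. The covered share of each cluster and its 10 kb flanks was 78.6% in AhCre WT crypts and 73.9% in ESC for Hoxa. For Hoxb it was 40.9% in AhCre WT crypts and 52.2% in ESC, for Hoxc 32.7% in crypts and 52.3% in ESC, and for Hoxd 55.3% in crypts and 71.3% in ESC. The Hoxd window held 7 peaks in AhCre WT crypts, 13 in Villin WT crypts and 10 in ESC, so the widest AhCre domain was broken up in the second crypt library. Villin WT crypts covered 78.7%, 36.0%, 37.9% and 56.9% of the 4 clusters. At each cluster the crypt libraries lay closer to each other than to ESC. Both left long stretches of the Hoxb3 to Hoxb1 end of Hoxb and of the Hoxd4 to Hoxd1 end of Hoxd without a peak that ESC covered. The mark H2AK119ub1 in AhCre WT crypts covered 91.5%, 56.6%, 70.3% and 63.2% of Hoxa, Hoxb, Hoxc and Hoxd.

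**Figure D3:**
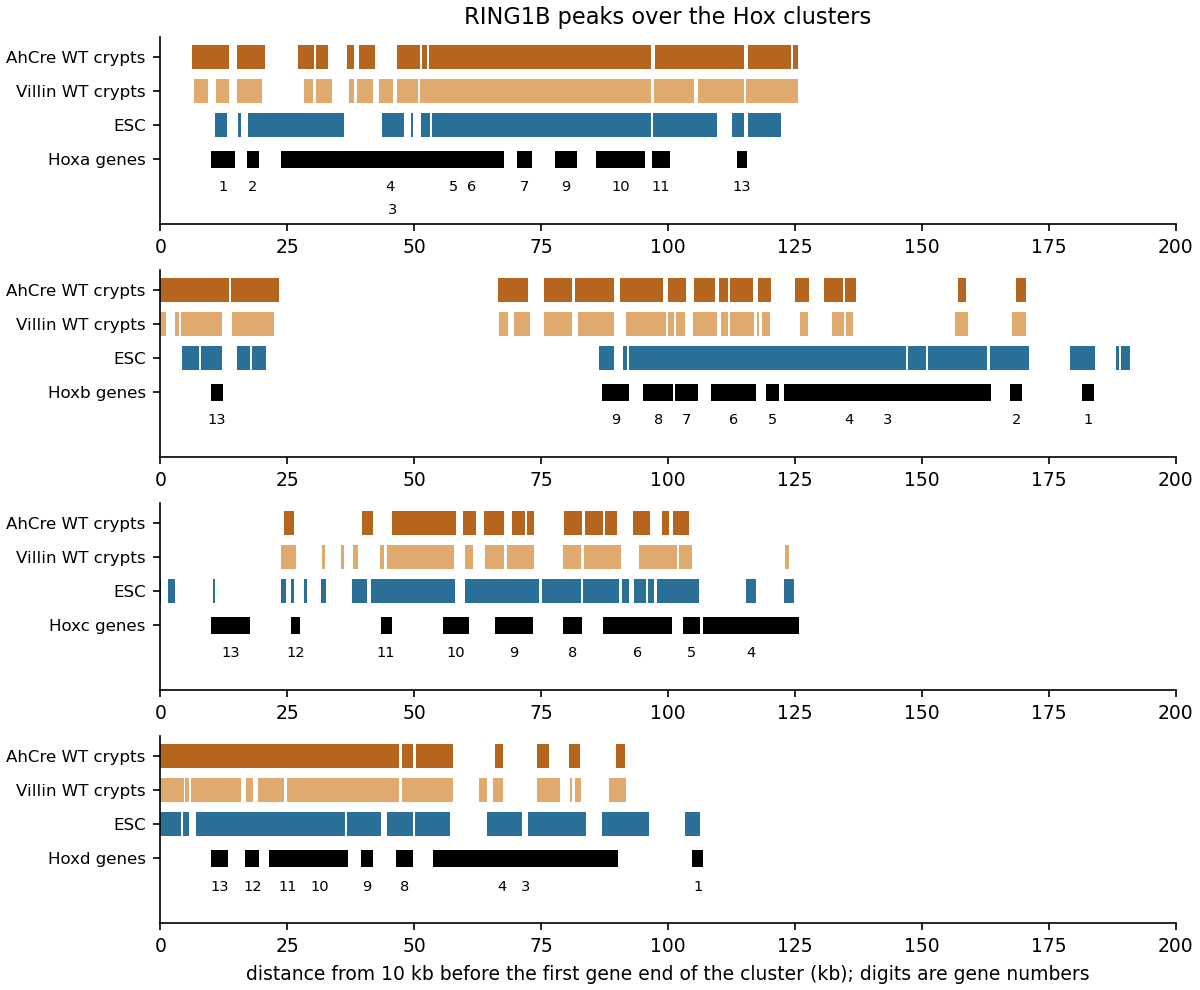
RING1B peaks (coloured blocks) and genes (black, numbered) over the Hoxa, Hoxb, Hoxc and Hoxd clusters, as distance in kb from 10 kb before the first gene end. Both crypt libraries and ESC cover the clusters, at 78.6% in AhCre WT crypts and 73.9% in ESC for Hoxa and 32.7% and 52.3% for Hoxc.

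By place, the widest gap between classes lay within genes. Within 1 kb of either end of a protein-coding gene lay 69.0% of shared and 64.1% of crypt-only crypt peaks, and 71.3% of shared and 61.6% of ESC-only ESC peaks. Deeper in gene bodies lay 17.8% of shared and 19.2% of crypt-only peaks, with overlapping intervals. In the ESC list, gene bodies held 13.5% of shared peaks (interval 11.8 to 15.4%) and 25.1% of ESC-only peaks (interval 23.8 to 26.4%). Between genes lay 13.3% of shared and 16.7% of crypt-only peaks, and 15.1% of shared and 13.3% of ESC-only peaks.

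At the level of genes, a gene was said to have RING1B when 1 or more peaks reached the 1 kb around either gene end. Of 21887 protein-coding genes, 1693 (7.74%) had RING1B in crypts and 3906 (17.8%) in ESC. Both cell types had it at 1096 genes (5.01%). Crypt-only genes numbered 583 (2.66%) and ESC-only genes 2745 (12.5%). With Villin WT crypts in place of AhCre WT crypts, 1665 genes had RING1B in both and 1434 were crypt-only. At scores of at least 20, these counts were 446 and 182. A further 79 genes were reached in 1 cell type only through the width of a shared peak and were put in neither class, and 17384 genes had no peak in either list. Neighbouring genes can share 1 peak. Villin WT crypts had RING1B at 1013 of the 1096 genes with RING1B in both, at 429 of the crypt-only and at 626 of the ESC-only genes.

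The 10 genes ranked highest in both lists were all developmental transcription factors. Isl2 led them, followed by Tal1, a factor of blood formation (881 in AhCre WT crypts and 610 in ESC), Sp9 of limb and forebrain (775 and 609) and Hmx2 of the inner ear (785 and 589). Otx1, Dlx2, Nkx2-3, Hoxa11 and Nkx2-5 were also among them. All 10 had RING1B in Villin WT crypts and H2AK119ub1 in both kinds of crypts.

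Of 39 Hox genes, 33 had RING1B in both cell types, 0 in crypts alone and 3 in ESC alone (Hoxb1, Hoxc13 and Hoxd1), and 3 depended on peak width. Of 115 other homeobox genes of development, 79 had RING1B in both, 0 were crypt-only and 24 ESC-only. Of 102 forkhead, Sox, T-box, GATA, bHLH and zinc finger factors, 58 had it in both, 1 was crypt-only (Gli2, a transcription factor of Hedgehog signalling) and 30 were ESC-only. The shares with RING1B in both were 84.6%, 68.7% and 56.9% of the 3 lists, beside 5.01% of all genes. The ESC-only shares were 7.69%, 20.9% and 29.4%, beside 12.5% of all genes, so that of the Hox genes was below it. The crypt-only counts of 0, 0 and 1 stand beside a crypt-only share of 2.66% of all genes. The median within-list percentile of the Hox genes was 95.7 in crypts and 98.7 in ESC.

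The 10 strongest ESC-only genes were Hmx1 (634), the muscle and neural crest factor Pax7 (617), Pax9 (561), Nkx1-1 (556), Zmiz1 (536), the forebrain factor Six3 (532), Foxb1 (504), the protocadherin Pcdh10 (494), Cdx2 (477) and Onecut1 (476). Their absence from crypts was not equally firm. Hmx1, Pax7, Pax9, Zmiz1, Pcdh10 and Onecut1 had no RING1B peak in any of the 4 crypt RING1B lists of the series. Nkx1-1, Six3 and Cdx2 had weak peaks in Villin WT crypts (15.9, 21.9 and 10.3), and Foxb1 had 1 of score 10.7 in AhCre Pcgf6 KO crypts. The peak at Pax7 spanned 19.2 kb in ESC, with an H2AK119ub1 peak of score 10.2 in Villin WT crypts.

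The strongest crypt-only genes were of other kinds. Igf2bp1, which encodes a fetal mRNA-binding protein, led with 437 and 419 in AhCre and Villin WT crypts, in a domain of 13.7 kb (chr11:95999694-96013429). It carried H2AK119ub1 in AhCre and Villin WT crypts (52.2 and 37.0) and was the single crypt-only domain of 10 kb or more. The ESC list had PCGF6 there (35.5) without RING1B. Gjc1, a connexin gene, scored 357 and 292 in AhCre and Villin WT crypts, and Fbxw7, a ubiquitin ligase subunit that limits Notch and Myc proteins, scored 258 and 208. Cecr2, a chromatin remodelling factor, scored 149 and 116. Glg1, Plag1 and Chchd7 (with 1 peak between them), Ap1s2 and Rdx followed, with 135 to 102 in AhCre WT crypts. Plag1 encodes a zinc finger factor of fetal growth. All of these had RING1B in Villin WT crypts and in both KO lists. Fbxw7 and Glg1 had PCGF6 and no H2AK119ub1 peak in crypts, whereas Igf2bp1, Gjc1, Cecr2 and Rdx had H2AK119ub1 and no PCGF6 peak there.

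Pluripotency genes were the list with the largest crypt-only count. Of 31, 5 were crypt-only, 4 had RING1B in both and 3 were ESC-only, against 2.66% crypt-only among all genes. Sox2 was the strongest. The zinc finger factor Klf2 scored 17.2 in AhCre WT and 25.8 in Villin WT crypts, the growth factor Fgf4 12.8 and 15.9, Sall4 11.5 and 28.4, and Mycn 11.1 and 13.6. All 5 had RING1B in Villin WT crypts and H2AK119ub1 in AhCre WT crypts, beside 73.6% and 46.1% of all crypt-only genes. Prdm14 had RING1B in both cell types, at 57.6 in AhCre WT crypts, 130 in Villin WT crypts and 34.6 in ESC. Gbx2, Myc and Utf1 were the other shared members. Pou5f1, Nanog, Esrrb and Zfp42, the core markers of ESC, had no RING1B peak in either list. The lists hold no expression, so these genes are read only as with or without RING1B.

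Intestinal identity factors lay on the other side. Of 35, 0 were crypt-only, 12 were ESC-only (34.3%) and 9 had RING1B in both (25.7%). Of all genes, 2.66% were crypt-only, 12.5% ESC-only and 5.01% in both, so a crypt-only count of 0 is little below the share of all genes. The ESC-only members included Cdx2, Ovol1 (384), Gata5 (301), Grhl2 (255), Foxa1 (178) and Esrp1 (176), which direct endodermal or epithelial differentiation, and Cdx1 (16.7). Villin WT crypts had RING1B at 4 of the 12, beside 22.8% of all ESC-only genes. AhCre WT crypts had PCGF6 at 11 of the 12, Id1 being the exception, and H2AK119ub1 at 0 of the 12. Over all ESC-only genes, crypt PCGF6 was at 41.7% and H2AK119ub1 of AhCre WT crypts at 35.8%, and over genes with RING1B in neither cell type at 37.5% and 7.53%. Several shared members were unequal in rank. Sox9, a factor of crypt progenitors and Paneth cells, had 15.6 in AhCre WT crypts and 593 in ESC, Foxa2 12.8 and 446, Gata6 10.3 and 393, and the ligand gene Ihh 10.2 and 444. Others were strong in crypts: Prdm1, a repressor of the adult enterocyte program before weaning, had 257 in AhCre WT crypts and 81.4 in ESC, Gata4, a factor of the proximal small intestine, 184 and 130, and Pdx1, a duodenal and pancreatic factor, 113 and 216. Hnf4a was without RING1B in both lists. Of 30 enterocyte genes, 29 were in neither list, among them Vil1, Alpi, Sis and Fabp1, and Slc5a1 was ESC-only (26.2). Most genes of any kind lack a peak: 17384 of all 21887 were in neither list. The enterocyte genes had RING1B in crypts in 0 cases, beside 7.74% of all genes.

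Epithelial junction and keratin genes showed the same side. Of 40, 19 were ESC-only (12.5% of all genes), 1 was crypt-only (Grhl1, 11.9) and 1 shared (Cldn23). The ESC-only members included the adhesion gene Epcam (54.3), the tight junction genes Ocln (122), Cldn3 and Cldn7 (61.5 each), and the keratin genes Krt8 (24.7), Krt18 (26.3) and Krt19 (14.3). AhCre WT crypts had PCGF6 at 17 of the 19 and H2AK119ub1 at 3, beside 41.7% and 35.8% of all ESC-only genes. Villin WT crypts had RING1B at 7 of the 19, beside 22.8%. Cdh1 had no RING1B in either list.

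Intestinal stem cell markers were split, with 3 of 21 shared, 3 crypt-only and 6 ESC-only. The same classes held 5.01%, 2.66% and 12.5% of all genes. Bmi1, a PRC1 gene, had 296 in AhCre WT crypts and 410 in ESC, and Lgr5, the receptor that marks crypt base stem cells, had 13.2 and 83.7. Tert, Ephb3 and Slc12a2 were crypt-only, at 10.2 to 14.5. Ascl2, the stem cell fate factor, was ESC-only by the AhCre list (172 in ESC), with 26.2 in Villin WT crypts. Of 41 secretory lineage and Notch genes, 12 were shared, 2 crypt-only and 6 ESC-only. Atoh1, the switch to secretory fate, had 147 in AhCre WT crypts and 268 in ESC, and Gfi1, which acts after it, had 102 and 323. The crypt-only share, 4.88%, stands beside 2.66% of all genes. The crypt-only members were the receptor gene Notch1 (19.97 in the AhCre and 22.7 in the Villin WT library) and its target Hes1 (13.6 in each). The Notch ligand gene Dll1 (281) and the enteroendocrine factor Neurog3 (118) were ESC-only.

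Signalling genes were mostly shared or ESC-only. Of all genes, 5.01% were shared, 2.66% crypt-only and 12.5% ESC-only. Of 52 Wnt pathway genes, 15 were shared, 2 crypt-only and 24 ESC-only. Among ligands, Wnt11 (38.8 in AhCre WT crypts, 341 in ESC), Wnt5a (37.0 and 324) and Wnt1 (33.0 and 328) were shared, and Wnt7b (372), Wnt3a (248) and Wnt7a (201) were ESC-only. The nuclear effector Lef1 had 147 in AhCre WT crypts and 342 in ESC. The crypt-only members were Notum, a secreted Wnt antagonist (25.1 in AhCre WT crypts, 25.8 in Villin WT crypts), and Tcf7l1, a repressor of Wnt targets (16.3 and 17.1). Of 57 BMP, TGF-β, FGF and Hedgehog genes, 16 were shared, 2 crypt-only (Fgf4 and the receptor gene Bmpr1a) and 27 ESC-only, among them Bmp6 (349), the BMP antagonists Grem1 (285) and Nog (238), and Bmp2 (275). Of 63 neuronal receptor, channel and adhesion genes, 9 were shared, 0 crypt-only and 30 ESC-only. Of 38 markers of mesenchymal, endothelial and immune cells, which a crypt preparation could hold, 4 were shared, 0 crypt-only and 5 ESC-only. The ESC-only share of these markers, 13.2%, was near the 12.5% of all genes.

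**Figure D4:**
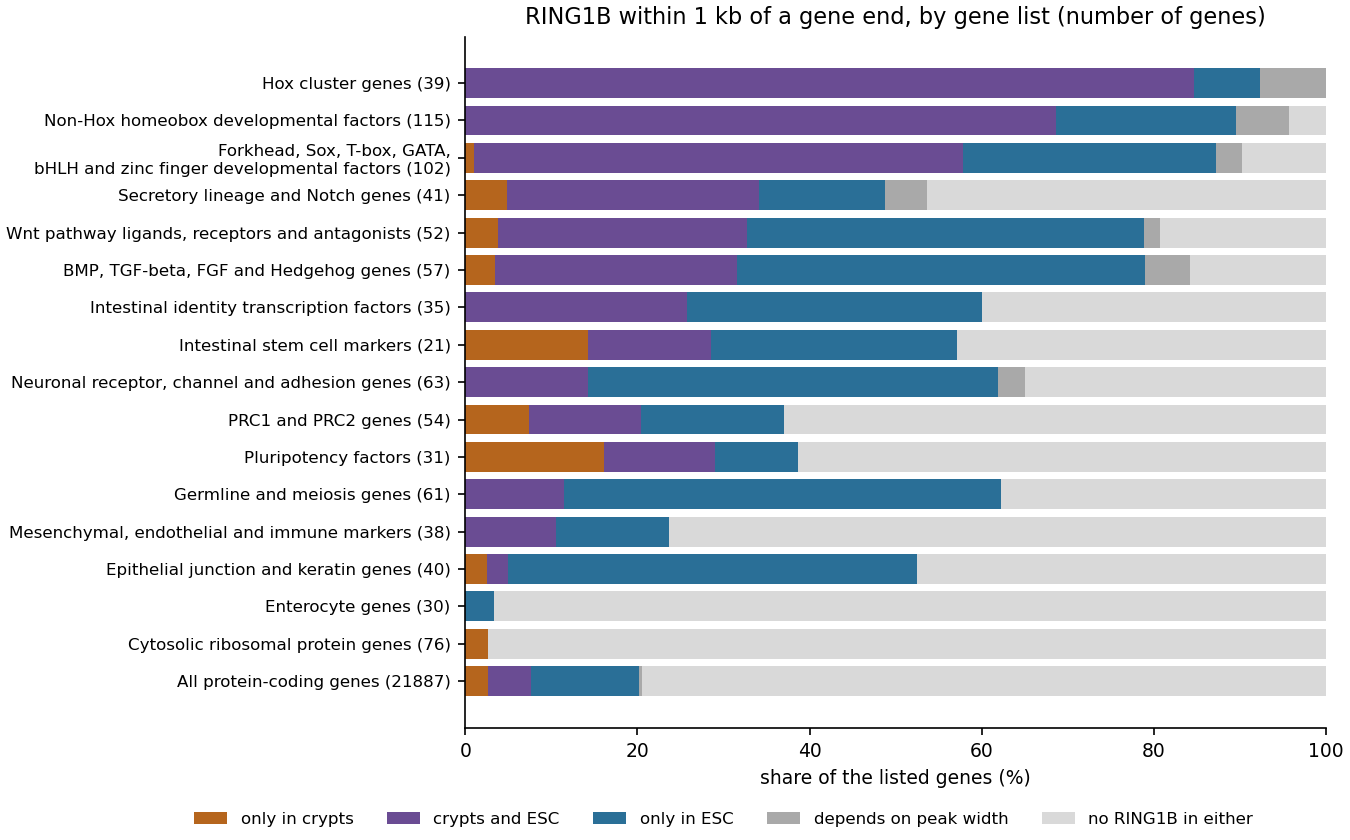
Share of each gene list (number of genes in brackets) with RING1B within 1 kb of a gene end only in crypts, in crypts and ESC, only in ESC, reached through peak width, or in neither list. Hox genes have the largest share with RING1B in both (33 of 39), pluripotency factors the largest crypt-only share (5 of 31), and germline genes the largest ESC-only share (31 of 61).

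Genes of PRC1 and PRC2 themselves, 54 in all, had RING1B in both cell types in 7 cases, were crypt-only in 4 and ESC-only in 9. These are 13.0%, 7.41% and 16.7% of the list, beside 5.01%, 2.66% and 12.5% of all genes. The chromobox genes Cbx2 and Cbx8 had 293 and 176 in AhCre WT crypts and 29.3 and 348 in ESC, and Mga had 86.8 in AhCre WT crypts and 64.0 in ESC. The crypt-only members Epop (21.0), Phc1 (17.2), Pcgf1 (13.2) and Ring1 (10.3) all had RING1B in Villin WT crypts. E2f6, ESC-only by the AhCre list (86.0 in ESC), had 34.8 in Villin WT crypts. Of 76 cytosolic ribosomal protein genes, 2 were crypt-only (Rpsa and Rpl10a) and the other 74 were in neither list, beside 17384 of all 21887 genes. Their crypt-only share, 2.63%, was near the 2.66% of all genes.

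Germline and meiosis genes had the largest ESC-only share. Of 61, 31 were ESC-only, 7 shared and 0 crypt-only, beside 12.5%, 5.01% and 2.66% of all genes. The ESC list gave 110 at the RNA helicase gene Ddx4, 68.4 at the synaptonemal complex gene Sycp1, 57.0 at Dazl and 49.4 at the piRNA pathway gene Mael. Villin WT crypts had RING1B at 2 of the 31, beside 22.8% of all ESC-only genes. ESC had PCGF6 at 30 of the 31, beside 60.1% of all ESC-only genes, with 509 at Ddx4, 217 at Sycp1 and 258 at Mael. AhCre WT crypts had PCGF6 at 9 of the 31, among them Dazl (98.8) and Tdrd1 (84.0), and H2AK119ub1 at 3, beside 41.7% and 35.8% of all ESC-only genes. The shared members Tdrkh and Zcwpw1 had PCGF6 at scores of 466 and 902 in AhCre WT crypts and 300 and 528 in ESC.

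The promoters of Ddx4 (chr13:112652261-112652560, minus strand), Mael (chr1:166238695-166238994, minus strand) and Sycp1 (chr3:102936051-102936350, minus strand) are printed from RefSeq (GRCm38.p6) because each holds the E-box CACGTG, in capitals, the kind of sequence that MAX and MGA are known to bind.
Ddx4: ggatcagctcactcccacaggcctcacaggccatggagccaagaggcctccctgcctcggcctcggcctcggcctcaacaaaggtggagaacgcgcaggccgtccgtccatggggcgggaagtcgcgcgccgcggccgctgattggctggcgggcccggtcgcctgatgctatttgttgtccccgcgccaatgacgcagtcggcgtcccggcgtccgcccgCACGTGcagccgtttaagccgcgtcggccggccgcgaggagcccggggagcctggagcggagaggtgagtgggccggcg
Mael: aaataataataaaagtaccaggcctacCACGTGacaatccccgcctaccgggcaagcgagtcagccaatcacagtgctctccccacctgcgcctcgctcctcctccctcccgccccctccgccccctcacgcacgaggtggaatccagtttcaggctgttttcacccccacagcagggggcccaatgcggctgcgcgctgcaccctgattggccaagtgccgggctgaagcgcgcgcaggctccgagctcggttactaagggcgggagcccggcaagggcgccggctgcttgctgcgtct
Sycp1: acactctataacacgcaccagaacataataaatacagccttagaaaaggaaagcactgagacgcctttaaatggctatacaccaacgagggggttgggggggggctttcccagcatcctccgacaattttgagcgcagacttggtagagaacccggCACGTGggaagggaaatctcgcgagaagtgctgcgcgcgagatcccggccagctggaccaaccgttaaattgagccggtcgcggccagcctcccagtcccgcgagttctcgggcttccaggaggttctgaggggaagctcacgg

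The E-box CACGTG, which reads the same on both strands, was searched in all 21263 RefSeq promoters of 17492 protein-coding genes (300 bp each). It was in 7.84% of them. A promoter was assigned to a class by the peaks that overlapped it. Among germline promoters with RING1B in ESC alone, 16 of 33 (27 genes) held CACGTG. Over all genes it was in 13.96% of crypt-only promoters, 11.3% of ESC-only promoters, 10.5% of promoters with RING1B in both and 7.20% of those with neither. The E2F-type motif GGCGGGA, on either strand, was in 28.2% of crypt-only, 22.7% of ESC-only, 21.9% of shared and 13.4% of promoters with neither, and in 14.9% of all. The T-box-type motif GGTGTGA was in 4.82%, 2.98%, 4.16% and 3.73% of the same classes, and in 3.68% of all. The median ratio of observed to expected CG was 0.793 in crypt-only, 0.723 in ESC-only, 0.789 in shared and 0.480 in promoters with neither. CG-rich promoters hold more matches to motifs rich in C and G, and the part of base composition in these shares was not tested. A match is a description of the sequence and not of binding.

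The classes also differed in what else the series measured at them. H2AK119ub1 of AhCre WT crypts overlapped 68.0% of crypt and 46.0% of ESC RING1B peaks. By class, it overlapped 80.9% of shared and 44.8% of crypt-only peaks (interval 41.4 to 48.2%), and 34.0% of ESC-only peaks (interval 32.6 to 35.4%). H2AK119ub1 of Villin WT crypts overlapped 58.0% of crypt and 36.5% of ESC peaks, with 71.9% of shared, 32.8% of crypt-only and 24.1% of ESC-only peaks. In the strongest crypt score quartile, H2AK119ub1 of AhCre WT crypts overlapped 91.1% of shared and 58.5% of crypt-only peaks. Shared peaks were also wider in that quartile (3681.5 against 2017 bp), and the part of width in these shares was not tested. ESC-only peaks lack RING1B of AhCre WT crypts by definition, and part of them overlapped H2AK119ub1 of those crypts. In the strongest ESC score quartile, 47.0% of ESC-only peaks overlapped this mark and 27.6% overlapped RING1B of Villin WT crypts. How many had the mark without RING1B in either crypt library was not counted.

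RING1B of Villin WT crypts overlapped 84.4% of crypt and 37.0% of ESC peaks. By class, it overlapped 91.0% of shared and 72.4% of crypt-only peaks, and 92.1% of shared and 18.7% of ESC-only peaks. In the strongest crypt score quartile, 99.4% of shared and 99.2% of crypt-only peaks were found in the second crypt library. RING1B of AhCre Pcgf6 KO crypts overlapped 56.2% of all crypt peaks, with 65.4% of shared and 39.6% of crypt-only peaks. RING1B of Villin Pcgf6 KO crypts overlapped 65.7% of all, 74.7% of shared and 49.3% of crypt-only peaks. The KO lists are shorter, with 1662 peaks against 2368 in AhCre WT and 2464 against 4403 in Villin WT crypts. The part of list length in these shares was not tested. In the strongest crypt score quartile the AhCre KO shares were 96.4% of shared and 91.5% of crypt-only peaks.

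PCGF6 of AhCre WT crypts overlapped 51.9% of crypt and 35.0% of ESC RING1B peaks, and PCGF6 of ESC overlapped 53.7% and 56.4%. Crypt PCGF6 overlapped 49.8% of shared and 55.6% of crypt-only peaks, with touching intervals, and 30.1% of ESC-only peaks. In the strongest crypt score quartile it overlapped 43.0% of shared and 42.4% of crypt-only peaks. ESC PCGF6 overlapped 66.6% of shared and 30.5% of crypt-only peaks, and 52.7% of ESC-only peaks. With both PCGF6 lists read together, 29.6% of crypt-only and 9.78% of shared crypt peaks had PCGF6 in crypts and not in ESC. Of ESC-only peaks, 8.17% had PCGF6 in crypts and not in ESC, and 30.8% had it in ESC and not in crypts. PCGF6 in both cell types was found at 25.9% of crypt-only, 21.9% of ESC-only and 40.0% of shared crypt peaks. No PCGF6 in either cell type was found at 39.9% of crypt-only, 39.1% of ESC-only and 23.6% of shared crypt peaks. The PCGF6 list of crypts is the longer, with 17163 peaks against 7850 in ESC, and wider RING1B peaks can meet more of them.

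**Figure D5:**
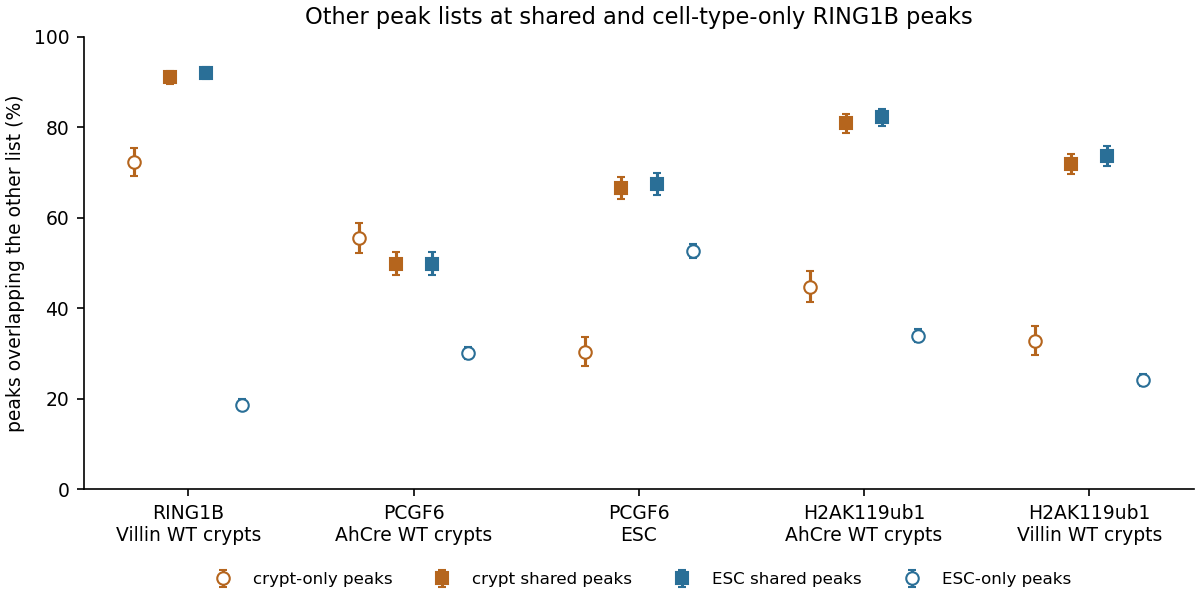
Share of crypt-only, shared (crypt and ESC list) and ESC-only RING1B peaks that overlap peaks of 5 other lists; bars are exact 95% intervals of counting error. ESC PCGF6 overlaps 30.5% of crypt-only and 52.7% of ESC-only peaks, whereas crypt PCGF6 overlaps 55.6% and 30.1%.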

How the data were processed

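ChIP-seq peak lists were used as deposited, 1 library a group. Column 5 of each deposited list is a −log10 p score from the authors' peak calling (a p or a q value, the files do not say). Per the submitters' processing notes, MACS2 2.1.1 and Bowtie in versions 1.1.2 and 1.2.2 were used, with builds dm6, hg38 and mm10 named and no role stated for any. Further settings are not given in the sources used here. Per the labels, a WT input of each cell type was the reference. Each ChIP sample has its own list. The ESC descriptions name the other antibody (PCGF6 for RING1B and the reverse) in 1 of their lines, so titles, antibody tags and the remaining line were followed. All 39 Hox genes had a peak within 1 kb in the list titled RING1B.

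Chromosomes 1 to 19, X and Y were kept, which left out 1 crypt peak. BED starts were converted to 1-based positions on mm10. Genes were 21887 protein-coding genes of the RefSeq table (GRCm38.p6), with windows of 1 kb around either end. A gene was in both when each list had a peak in its window. It was cell-type-only when only 1 list had peaks there and none of these overlapped a peak of the other list. A gene's score is that of its strongest peak in the window. Named were the 10 highest genes of each class (by mean within-list percentile for shared genes, by score for the others), the 5 widest peaks of each list and members of 16 gene lists. A few genes under this rule are not reported here. The members and lists were chosen with earlier results of these data known. No test was run. Alternatives were a score of at least 20, overlap of 50%, other windows, lists of equal length and Villin WT crypts. Overlaps were checked against bedtools in 4 pairs of lists, and 0 differed. On a copy of the crypt list with 200 peaks removed, all 200 were found. Tools were bedtools 2.31.1 and Python 3.11.15 with scipy 1.17.1, pandas 2.3.3, numpy 2.4.6 and matplotlib 3.10.9.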

Additional observations from a re-analysis of the deposited data

How the results depend on the processing

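The share of crypt peaks shared with ESC was 64.4% as reported. It was 58.7% when 50% of a peak had to be covered, 68.6% for scores of at least 20, 42.7% with lists of equal length, 53.5% for Villin WT crypts and 69.4% for peaks found in both crypt libraries. The ESC share, 24.97%, was 18.1%, 16.01%, 39.1% and 37.0% under the first 4 of these and 39.0% against either crypt list. Genes with RING1B in both numbered 446 at scores of at least 20, 1665 with Villin WT crypts and 1748 with either crypt list, against 1096, and crypt-only genes 182, 1434 and 1586, against 583. At scores of at least 20, median widths were 3065.5 bp for shared and 1589 bp for crypt-only peaks. ESC-only genes stayed within 1.5 times of 2745 under every alternative run. Counts of crypt-only genes thus depend on which crypt library is read. The joined crypt lists, the peaks found in both libraries and a window of 1 kb around RefSeq starts (801 genes in both, 489 crypt-only and 2119 ESC-only) were added after seeing the data. No paired analysis was possible because every group had 1 library and no result came from a test. A peak list shows no depth, so absence from a list, at a score under 10, is not absence of RING1B, and the cell type, the library and its depth cannot be told apart.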

Other observations

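CTCF, an insulator protein, and RAD21, a cohesin subunit, were measured in Villin WT crypts. CTCF peaks overlapped 30.1% of shared and 24.4% of crypt-only RING1B peaks of the crypt list, and 17.2% of ESC-only peaks. RAD21 peaks overlapped 28.9%, 25.5% and 18.2% of the same classes. Over all peaks, CTCF overlapped 28.0% of the crypt and 20.9% of the ESC list, and RAD21 27.7% and 20.9%. Shared peaks were also wider, and the part of width in these shares was not tested. On chromosome X, the crypt list had 22 RING1B peaks, of which 15 were shared, and the ESC list had 128, of which 15 were shared (11.7%, interval 6.71 to 18.6%). On the autosomes, the shared part of the ESC peaks was between 20.7% (chromosome 7) and 34.0% (chromosome 13). At least 50 kb from any gene end lay 3.81% of shared and 6.64% of crypt-only peaks, and 3.75% of shared and 6.69% of ESC-only peaks.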
